A study of Mus musculus with 4 samples.

Results

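Hepatocytes secrete most of the proteins of blood plasma, and 49 genes for such proteins were read here across 4 arrays of sorted mouse intestinal cells. The genes form a listed module that was put together after differences between these arrays were known, chiefly the difference between stem and non-stem cells. A listed gene counts as measured where an array feature is annotated with its symbol and no other. Of the 49 listed genes, 44 were measured, out of 30701 genes measured in all. They comprise 12 transport and binding proteins, 13 clotting and fibrinolysis proteins, 10 inhibitors, 4 apolipoproteins, 3 complement proteins and 2 serum amyloid A proteins. Apoc2 and Apoc4, apolipoproteins of triglyceride-rich lipoproteins, share a feature and were left out of the counts. C5 is carried in the annotation under its mouse symbol Hc, so it lies outside the rule, and its value is given beside the complement genes. Gc and C3 were not analysed here.

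Hepatocytes keep these genes active together under liver-enriched transcription factors, among them HNF1, HNF4 and C/EBP proteins. The products travel in blood as carriers of hormones, iron, haem and lipid, as clotting factors with their inhibitors, and as complement. A subset, the acute-phase proteins, rises when cytokines such as interleukin-6 reach the liver. The intestinal epithelium also makes some plasma proteins, above all apolipoproteins of chylomicrons, but it is not known as a source of albumin or fibrinogen.

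Total RNA of small intestinal cells was read on Clariom D mouse arrays, with 1 array for each group. The groups were labelled LncGata6 mutant stem cells (LncGata6mut), Ehf knockout stem cells (Ehf-/-), wild-type stem cells and wild-type non-stem cells. Every group came from mice of 8 weeks that carry Lgr5GFP-CreERT2, in which the Lgr5 promoter drives GFP and a tamoxifen-inducible Cre. The 3 stem cell groups are labelled GFP-positive, and the non-stem group is labelled GFP-negative. Lgr5 marks crypt base stem cells, LncGata6 is a long noncoding RNA transcribed beside Gata6, and the product of Ehf is an epithelial transcription factor of the ETS family. The collection protocol of all 4 samples names sorting of ILCreg cells, an innate lymphoid population, so the gate is uncertain. Whether animals were pooled is not stated. With 1 array per group there is no test and no error, and a difference between groups cannot be told apart from a difference between arrays.

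Several readings go against the labels. Lgr5 read 3.03 on the LncGata6 mutant array and 2.79 on the Ehf knockout array, against 9.41 in wild-type stem cells and 3.03 in non-stem cells (log2 signal). The background limit, the 95th percentile of an array's negative control features, was 5.31, 5.19, 5.62 and 5.16 on the LncGata6 mutant, Ehf knockout, wild-type stem and non-stem arrays. Lgr5 was therefore above background on the wild-type stem array alone. Of 15 genes of general epithelium, such as keratins and junction proteins, 14, 0 and 15 were at or above the limit on the LncGata6 mutant, Ehf knockout and wild-type stem arrays and 13 on the non-stem array. Ehf read 5.09, 3.03, 6.99 and 3.75 on the LncGata6 mutant, Ehf knockout, wild-type stem and non-stem arrays. Gata6os, the listed name of LncGata6, read 4.37, 4.04, 4.92 and 3.14 in that order. Ehf was above background on the wild-type stem array alone. On the Ehf knockout array it lay at background together with the epithelial genes. Gata6os lay at background on all 4 arrays. Neither reading checks its label, and the arrays are named by their labels throughout.

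Promoters are shown for Alb and for the neighbouring fibrinogen genes Fga and Fgb, which differed together between the arrays. Those of Saa1 and Saa2 are shown because their transcripts are hard to tell apart. Each stretch holds 250 bases before and 50 after the transcription start, from RefSeq on GRCm38.p6, written 5′ to 3′ on the gene's strand. Capitals mark matches to any of 3 motifs, searched on both strands: GTTAAT (a half-site of HNF1), TTGCNNAA (C/EBP) and CAAAGNNCA (HNF4). The motifs were chosen after the data were seen.
Alb (chr5:90460620-90460919, plus strand): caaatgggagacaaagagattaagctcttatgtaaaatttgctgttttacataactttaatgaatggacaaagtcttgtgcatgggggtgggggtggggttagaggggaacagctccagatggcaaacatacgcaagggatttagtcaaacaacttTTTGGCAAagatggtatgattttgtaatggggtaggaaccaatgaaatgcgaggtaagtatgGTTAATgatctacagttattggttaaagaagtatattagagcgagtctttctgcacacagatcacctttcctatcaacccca
Fga (chr3:83025903-83026202, plus strand): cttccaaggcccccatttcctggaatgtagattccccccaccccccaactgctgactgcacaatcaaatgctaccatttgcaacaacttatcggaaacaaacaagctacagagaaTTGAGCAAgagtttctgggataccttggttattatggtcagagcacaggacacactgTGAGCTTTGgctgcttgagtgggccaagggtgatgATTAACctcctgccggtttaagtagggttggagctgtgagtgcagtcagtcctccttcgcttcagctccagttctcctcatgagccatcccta
Fgb (chr3:83049814-83050113, minus strand): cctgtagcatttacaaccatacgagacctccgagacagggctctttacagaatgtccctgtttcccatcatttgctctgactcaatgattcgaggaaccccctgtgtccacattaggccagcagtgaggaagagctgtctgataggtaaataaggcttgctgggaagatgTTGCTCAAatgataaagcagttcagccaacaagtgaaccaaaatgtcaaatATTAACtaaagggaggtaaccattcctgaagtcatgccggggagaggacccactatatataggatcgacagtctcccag
Saa1 (chr7:46742931-46743230, minus strand): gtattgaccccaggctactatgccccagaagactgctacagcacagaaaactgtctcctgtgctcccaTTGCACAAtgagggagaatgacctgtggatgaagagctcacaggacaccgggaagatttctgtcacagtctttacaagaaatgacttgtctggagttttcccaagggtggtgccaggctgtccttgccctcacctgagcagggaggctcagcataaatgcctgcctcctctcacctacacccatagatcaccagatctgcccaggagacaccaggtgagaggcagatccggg
Saa2 (chr7:46751583-46751882, plus strand): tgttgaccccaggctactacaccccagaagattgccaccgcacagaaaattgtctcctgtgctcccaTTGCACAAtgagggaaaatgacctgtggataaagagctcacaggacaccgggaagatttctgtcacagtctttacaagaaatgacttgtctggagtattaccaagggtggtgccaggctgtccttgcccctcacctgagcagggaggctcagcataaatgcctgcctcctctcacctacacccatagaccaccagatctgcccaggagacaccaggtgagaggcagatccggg

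In Alb the HNF1 half-site begins 32 bases before the start and the C/EBP match 94 bases before it. Fga held matches to all 3 motifs, and its HNF1 half-site begins 43 bases before the start. Fgb held an HNF1 half-site 29 bases before the start and a C/EBP match 80 bases before it. The listed promoter of Fgg, the remaining fibrinogen gene, held no match to any of the 3 motifs and is not shown. In a gapped alignment, 287 of the 300 bases were identical between the promoters of Saa1 and Saa2, and both hold the same C/EBP match, TTGCACAA. A promoter was listed for 33 of the 44 measured members. Of these, 7 held the HNF1 half-site (21.2%, against 8.24% of 27025 genes with a listed promoter), 15 the C/EBP motif (45.5%, against 12.2%) and 7 the HNF4 motif (21.2%, against 7.27%). At least 1 of the motifs stood in 21 of the 33 (63.6%, against 24.5% of all genes). Matches of different motifs were counted separately even where they overlapped. A match is a run of letters, not evidence of binding.

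The members were bright on the non-stem array and at background on nearly all others. On the non-stem array 43 of the 44 were at or above the background limit, all but Saa2. The LncGata6 mutant array had 1 such member (Saa1), the Ehf knockout array 3 (Hp, Trf and Orm1) and the wild-type stem array 0. Over all genes the share at or above the limit was 20.1%, 17.5% and 16.5% on the LncGata6 mutant, Ehf knockout and wild-type stem arrays and 26.5% on the non-stem array. The members' median signal was 2.78, 2.46 and 2.69 on the LncGata6 mutant, Ehf knockout and wild-type stem arrays and 8.76 on the non-stem array (log2). The members ranged over 1.24 to 5.68, 1.09 to 8.97, 1.25 to 4.60 and 4.87 to 12.5 on these arrays. Fewer cells of a type and less RNA per cell cannot be told apart in such samples.

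**Figure D1:**
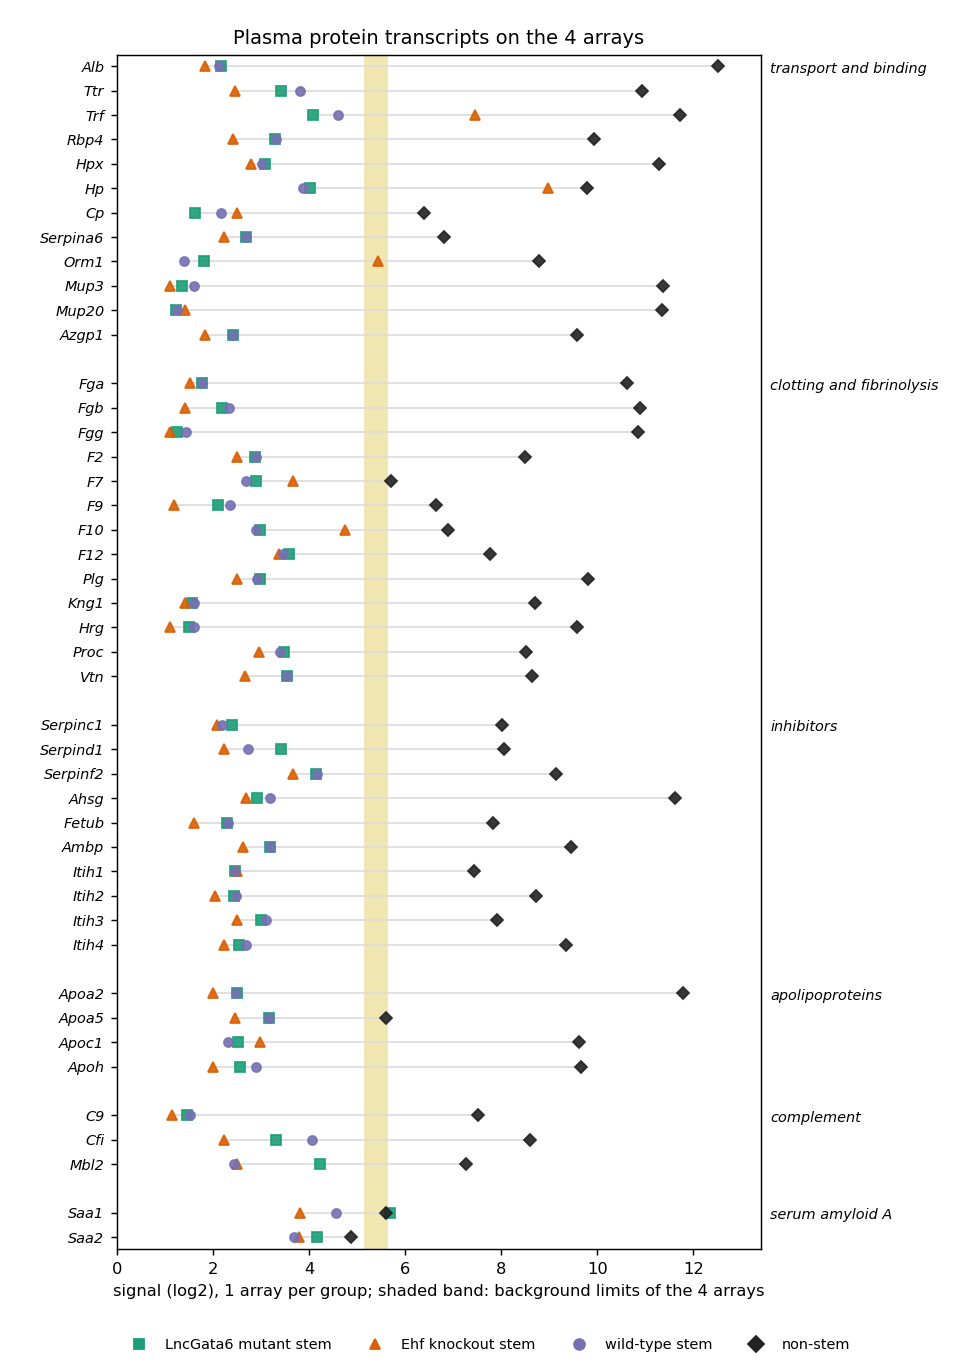
Log2 signal of the 44 measured members on the 4 arrays, grouped by role, with 1 point per array (squares LncGata6 mutant, triangles Ehf knockout, circles wild-type stem, diamonds non-stem) and a grey line over each gene's range. The shaded band spans the arrays' background limits, 5.16 to 5.62; nearly all diamonds lie to its right, and Hp, Trf and Orm1 on the Ehf knockout array are the triangles that reach or pass it.

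A gene is called different between arrays where the log2 values differ by at least 1, which is 2-fold, and the brighter one reaches the 75th percentile of genes on its own array. By this limit 43 of the 44 members were lower on the wild-type stem array than on the non-stem array, and 7.07% of all genes were. The members were listed with this contrast in view, so the count is a description and carries no weight of its own. The LncGata6 mutant array had 42 lower members against the non-stem array (all genes 6.87%), all but Saa1 and Saa2. The Ehf knockout array also had 42 (all genes 9.83%), all but Hp and Saa2. In these 3 comparisons, which share the non-stem array, 0 of the 44 were called higher. Over all genes 3.66% were for the LncGata6 mutant, 3.01% for the Ehf knockout and 3.82% for the wild-type stem array. For the wild-type stem array the count of 0 was fixed by the call limit, since its highest member, Trf at 4.60, lay under its 75th percentile of 4.97. Only Saa1 reached that percentile on the LncGata6 mutant array (4.93), and only Hp, Trf, Orm1 and F10 on the Ehf knockout array (4.60). The other members could not be called higher. The members' median difference from the non-stem array was -6.17, -6.29 and -6.13 on the LncGata6 mutant, Ehf knockout and wild-type stem arrays (log2). Over all genes it was -0.16, -0.29 and -0.11. The split of all genes depends on the scaling. Against the non-stem array, 1124 genes were higher and 2108 lower for the LncGata6 mutant as deposited, and 1573 and 1568 after quantile normalization. For the Ehf knockout these counts were 923 and 3018 as deposited and 1755 and 1856 after it, and for the wild-type stem array 1173 and 2171 as deposited and 1729 and 1683 after it. After quantile normalization 42 members were lower in each of the 3 comparisons, against 43 as deposited for the wild-type stem array, where Saa1 was lost.

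Folds are brighter over dimmer, and a dimmer value under the background limit is replaced by that limit, so most folds are lower bounds. Among the called members, 42 had a fold for the LncGata6 mutant array against the non-stem array, 1.22 to 148 with a median of 12.7. For the Ehf knockout array 42 had one, 1.32 to 160.4 with a median of 11.5, and for the wild-type stem array 41 had one, 1.06 to 119 with a median of 11.4. With the 99th percentile of the negative controls as the limit, 28, 27 and 28 members kept a fold against the non-stem array on the LncGata6 mutant, Ehf knockout and wild-type stem arrays.

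The transport and binding proteins were at background on the wild-type stem array in 12 of 12 cases. Alb encodes albumin, the main plasma carrier of fatty acids and hormones, and read 2.17, 1.83 and 2.13 on the LncGata6 mutant, Ehf knockout and wild-type stem arrays and 12.5 on the non-stem array. Relative to the non-stem array, Alb was at least 148-fold lower in the LncGata6 mutant, at least 160.4-fold lower in the Ehf knockout and at least 119-fold lower in the wild-type stem cells. Ttr, which carries thyroid hormone, read 3.41, 2.46 and 3.80 on the LncGata6 mutant, Ehf knockout and wild-type stem arrays and 10.9 on the non-stem array. Its partner Rbp4, the retinol carrier, read 3.29, 2.42 and 3.30 on those arrays and 9.94 on the non-stem array. Both were above background on the non-stem array alone.

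Hpx, which binds free haem, read 3.07, 2.80 and 3.03 on the LncGata6 mutant, Ehf knockout and wild-type stem arrays and 11.3 on the non-stem array. Cp, the copper ferroxidase ceruloplasmin, read 1.63, 2.51 and 2.17 on those arrays and 6.39 on the non-stem array. Serpina6, the corticosteroid carrier, read 2.68, 2.23 and 2.69, against 6.81 on the non-stem array. For Azgp1, a zinc-binding plasma glycoprotein, the signals were 2.41, 1.83, 2.42 and 9.57 in the same order. These 4 genes had no signal above background outside the non-stem array.

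Mup3 and Mup20 encode major urinary proteins, pheromone carriers that mouse liver secretes for excretion in urine. Mup3 read 1.35, 1.09 and 1.60 on the LncGata6 mutant, Ehf knockout and wild-type stem arrays and 11.4 on the non-stem array. Mup20 read 1.24, 1.41 and 1.25 on those arrays and 11.4 on the non-stem array. The 2 genes are neighbours on chromosome 4 in a family of near-identical copies, so which copy gave the signal is uncertain. The remaining transport members, Trf, Hp and Orm1, departed from this pattern on the Ehf knockout array and are described with that comparison.

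The clotting and fibrinolysis genes were lower on the wild-type stem array than on the non-stem array without exception (13 of 13), and their median difference was -5.60. Fga, Fgb and Fgg encode the 3 chains of fibrinogen and lie side by side on chromosome 3. Fga read 1.78, 1.51 and 1.78 on the LncGata6 mutant, Ehf knockout and wild-type stem arrays and 10.6 on the non-stem array. Fgb read 2.18, 1.41 and 2.33, against 10.9 on the non-stem array. Fgg read 1.26, 1.09 and 1.43, against 10.8 on the non-stem array. All 3 were at least 31.8-fold lower on the wild-type stem array than on the non-stem array.

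F2, prothrombin, read 2.88, 2.51 and 2.89 on the LncGata6 mutant, Ehf knockout and wild-type stem arrays and 8.49 on the non-stem array. F9, whose loss causes haemophilia B, read 2.09, 1.19 and 2.35, against 6.64 on the non-stem array. F12, which starts contact activation, read 3.58, 3.36 and 3.45, against 7.77 on the non-stem array. Each was above background on the non-stem array alone. F7, the partner of tissue factor, was at 2.90, 3.67 and 2.68 on the LncGata6 mutant, Ehf knockout and wild-type stem arrays and at 5.71 on the non-stem array. Its non-stem signal was close to the limit, and F7 was at least 1.06-fold lower on the wild-type stem array.

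Plg, the zymogen of the fibrin-cleaving enzyme plasmin, read 2.99, 2.51 and 2.92 on the LncGata6 mutant, Ehf knockout and wild-type stem arrays and 9.80 on the non-stem array. Kng1, the precursor of bradykinin, read 1.57, 1.41 and 1.59, against 8.70 on the non-stem array. Hrg, a histidine-rich plasma glycoprotein, read at most 1.61 on them, against 9.58 on the non-stem array. These 3 members showed no signal above background outside the non-stem array. Proc, the precursor of the anticoagulant protein C, was at 3.48, 2.95, 3.39 and 8.52 in the same order of arrays. Vtn, the adhesive protein vitronectin, was at 3.54, 2.66, 3.53 and 8.65.

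All 10 inhibitors and protein binders were lower on the wild-type stem array than on the non-stem array, with a median difference of -5.67. Serpinc1, antithrombin, read 2.39, 2.09 and 2.18 on the LncGata6 mutant, Ehf knockout and wild-type stem arrays and 8.01 on the non-stem array. Serpind1, heparin cofactor II, read 3.42, 2.23 and 2.73, against 8.06 on the non-stem array. Serpinf2, the plasmin inhibitor, read 4.14, 3.67 and 4.16, against 9.14 on the non-stem array. The 3 serpins were at background on every array but the non-stem one.

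Ahsg, fetuin A, which keeps calcium phosphate in solution, read 2.92, 2.69 and 3.18 on the LncGata6 mutant, Ehf knockout and wild-type stem arrays and 11.6 on the non-stem array. Its neighbour on chromosome 16, Fetub, read 2.28, 1.61 and 2.31, against 7.82 on the non-stem array. Ambp, the precursor of bikunin and alpha-1-microglobulin, read 3.19, 2.63 and 3.18, against 9.46 on the non-stem array. Bikunin is joined to the heavy chains encoded by the Itih genes. Itih1, Itih3 and Itih4, side by side on chromosome 14, read 7.44, 7.91 and 9.35 on the non-stem array, and Itih2, on another chromosome, read 8.73 there. On the LncGata6 mutant, Ehf knockout and wild-type stem arrays the 4 Itih genes lay within 2.04 to 3.11, all under the background limits.

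Of the 48 members found in the reference gene table, 17 lie next to another member among protein-coding genes, although the members are spread over 18 chromosomes. Besides the fibrinogen, Mup, Itih and fetuin groups, these are Hrg beside Fetub, Apoc4 beside Apoc1, Saa1 beside Saa2 and F7 beside F10.

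The 4 apolipoproteins among the members were at background on each stem cell array. Apoa2, a structural protein of high-density lipoprotein, read 2.49, 1.99 and 2.49 on the LncGata6 mutant, Ehf knockout and wild-type stem arrays and 11.8 on the non-stem array. Apoc1, which inhibits lipoprotein clearance, read 2.53, 2.99 and 2.32, against 9.63 on the non-stem array. Apoh, beta-2-glycoprotein I, read 2.57, 1.99 and 2.89, against 9.66 on the non-stem array. Apoa5, which promotes triglyceride clearance, read 3.17, 2.46 and 3.17, against 5.59 on the non-stem array. Apoa5 was called lower on the wild-type stem array, but with its value there raised to the limit no fold remains. The feature that Apoc2 and Apoc4 share read 4.87, 4.08 and 3.95 on the LncGata6 mutant, Ehf knockout and wild-type stem arrays and 7.38 on the non-stem array.

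Apolipoproteins that the intestine also makes followed the members only in part. Those named below read lower on the Ehf knockout and wild-type stem arrays than on the non-stem array, as the members did. Unlike the members of this family, they were above background on the LncGata6 mutant array. Apoa1 read 11.05, 3.98 and 7.54 on the LncGata6 mutant, Ehf knockout and wild-type stem arrays and 11.2 on the non-stem array. Apob, the scaffold of chylomicrons, read 11.3, 2.43, 7.37 and 10.4 on these arrays. Both were called higher on the LncGata6 mutant array and lower on the Ehf knockout array than on the wild-type stem array, 2 comparisons that share the wild-type stem array. Apoc3, an inhibitor of lipoprotein lipase, read 6.73, 3.69, 4.30 and 7.66, and Apoa4, an apolipoprotein of chylomicrons, read 10.98, 3.65, 6.78 and 9.30. These differences stand beside the enterocyte genes: 27, 1 and 17 of 27 were at or above the limit on the LncGata6 mutant, Ehf knockout and wild-type stem arrays and 26 on the non-stem array. Apoa1, Apoa4, Apob and Apoc3 are themselves in that enterocyte list, and the part of enterocytes in the apolipoprotein signals was not tested.

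**Figure D2:**
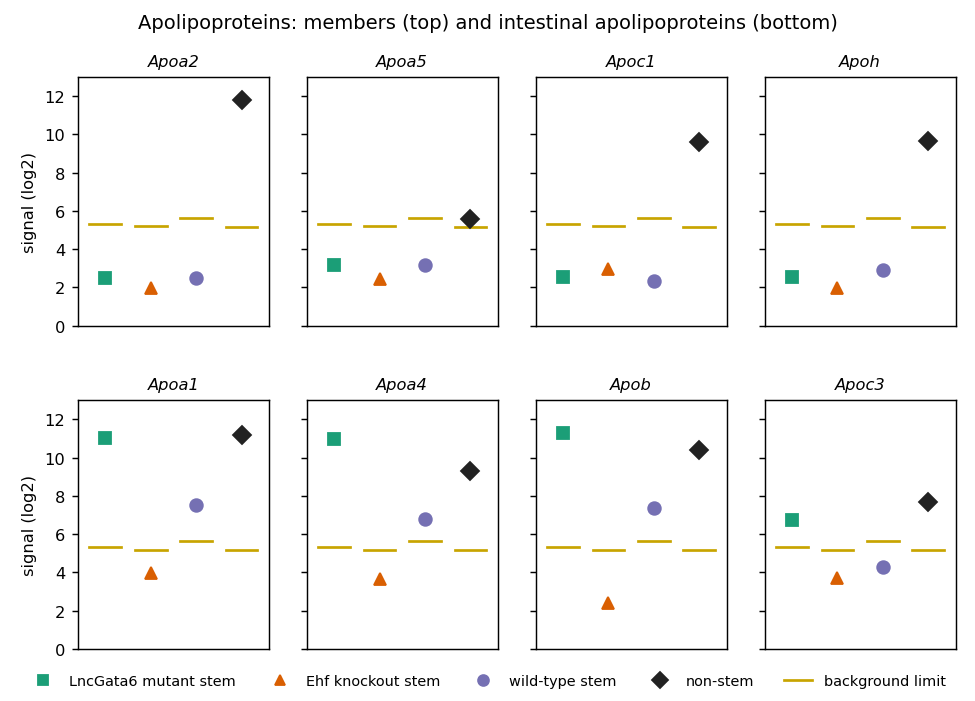
Log2 signal of 8 apolipoprotein genes on the 4 arrays, 1 point per array, with each array's background limit as a horizontal bar. The members in the upper row exceed the limit on the non-stem array alone, whereas Apoa1, Apoa4 and Apob in the lower row exceed it on the LncGata6 mutant, wild-type stem and non-stem arrays and Apoc3 on the LncGata6 mutant and non-stem arrays.

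The complement members followed the majority. C9, the pore-forming component, read 1.46, 1.14 and 1.51 on the LncGata6 mutant, Ehf knockout and wild-type stem arrays and 7.52 on the non-stem array. Cfi, the protease that cleaves C3b, read 3.30, 2.23 and 4.05, against 8.60 on the non-stem array. Mbl2, a mannose-binding lectin, read 4.24, 2.51 and 2.44, against 7.27 on the non-stem array. Its values differed by 1.79 between the LncGata6 mutant and wild-type stem arrays, but the brighter value was under its array's 75th percentile of 4.93, so no call was made. Both values were also under background. Hc, the mouse gene for C5, read 1.90, 1.61 and 1.87 on the LncGata6 mutant, Ehf knockout and wild-type stem arrays and 8.35 on the non-stem array.

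Saa1 and Saa2 encode serum amyloid A, acute-phase proteins that gut epithelium is also known to make, and they differed least clearly between the arrays. Saa1 read 5.68 on the LncGata6 mutant array and 3.80 on the Ehf knockout array, against 4.56 in wild-type stem cells and 5.60 in non-stem cells. Saa2 read 4.16, 3.79, 3.68 and 4.87 on those arrays and passed no background limit. Saa1 was just above the limit on the LncGata6 mutant and non-stem arrays. The genes are neighbours with near-identical coding sequences, so the signal of either may hold transcripts of the other.

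Between the mutant and wild-type stem arrays no member could be called lower, and all 44 were at background on the wild-type stem array. The highest member there was Trf at 4.60, under that array's 75th percentile of 4.97. The LncGata6 mutant array had 1 of 44 members called higher (all genes 2.8%), a share that does not stand apart from the background. The count of 0 lower (all genes 3.01%) was fixed by the call limit. Over all genes 861 were higher and 923 lower as deposited, and 1100 and 651 after cyclic loess. The member was Saa1, with a difference of 1.12 and a fold of at least 1.04. The members' median difference was -0.01, against -0.06 over all genes. Differences were under 0.5 in size for 38 of 44 members, with a median size of 0.12, against 78.3% of all genes and 0.21. Nearly all of the members' values in this comparison lay under background.

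On the Ehf knockout array 4 of 44 members were called higher than on the wild-type stem array (all genes 2.59%). The count of 0 lower (all genes 5.28%) was again fixed by the call limit. Over all genes 796 were higher and 1620 lower as deposited, and 1130 and 1032 after quantile normalization, which kept the count of 4 members. The 4 were Hp, Trf, Orm1 and F10. Hp, haptoglobin, which captures free haemoglobin, read 4.01 on the LncGata6 mutant array and 8.97 on the Ehf knockout array, against 3.87 in wild-type stem cells and 9.78 in non-stem cells. It was 5.10 higher (log2) on the Ehf knockout array than on the wild-type stem array, at least 10.2-fold, or at least 1.70-fold with the 99th percentile of the controls as the limit. The Ehf knockout signal of Hp was 1.76-fold below that of the non-stem array, which was not called. In humans, haptoglobin and orosomucoid are also stored in neutrophil granules.

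Trf, transferrin, the plasma iron carrier, read 4.07 on the LncGata6 mutant array and 7.46 on the Ehf knockout array, against 4.60 in wild-type stem cells and 11.7 in non-stem cells. It was at least 3.56-fold higher on the Ehf knockout array than on the wild-type stem array and 19.2-fold lower than on the non-stem array. With the 99th percentile of the controls as the limit, Trf lay under it on both the Ehf knockout and wild-type stem arrays, so that fold was lost. Orm1, orosomucoid, an acute-phase carrier of drugs and lipids, read 1.81 and 5.44 on the LncGata6 mutant and Ehf knockout arrays, against 1.39 in wild-type stem cells and 8.79 in non-stem cells. Its Ehf knockout value stood just above that array's limit of 5.19 and below the wild-type stem array's limit of 5.62, so no fold against the wild-type stem array is given. Against the non-stem array it was 10.2-fold lower, or at least 2.11-fold with the 99th percentile as the limit. F10, coagulation factor X, read 2.98 and 4.75 on the mutant arrays in that order, against 2.90 in wild-type stem cells and 6.89 in non-stem cells. Its call rests on values that both lie under background, and it was lost when the brighter value had to reach the background limit.

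The other 40 measured members were at background on the Ehf knockout array as on the wild-type stem array. F7, the neighbour of F10, was not called, with a difference of 0.99, and neither was Saa1, with -0.76. The median difference of all 44 members was -0.43, against -0.20 over all genes, and 22 of 44 differed by under 0.5 in size, against 65.9% of all genes. Other plasma protein genes, a list of 59 measured non-members, had 3 called higher on the Ehf knockout array (5.08%, all genes 2.59%). F5, the cofactor of activated factor X, read 5.89 there against 2.95 on the wild-type stem array. Lrg1, a leucine-rich acute-phase glycoprotein, was at 5.66 against 2.52, and Lbp, which binds bacterial endotoxin, at 5.86 against 3.73. The 5 lower (8.47%, all genes 5.28%) were Apob, Apoa1, Serping1, Cfb and Hgfac.

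Several lists of blood cell markers were also high on the Ehf knockout array. Of 14 neutrophil genes, 0, 14 and 0 were at or above the limit on the LncGata6 mutant, Ehf knockout and wild-type stem arrays and 6 on the non-stem array. The list's median signal was 2.90, 9.15, 2.79 and 4.38 on these arrays. S100a8, a subunit of calprotectin, read 11.4 on the Ehf knockout array, against 1.51 in wild-type stem cells and 7.87 in non-stem cells. Ltf, lactoferrin, a granule protein related to transferrin, read 10.6 on the Ehf knockout array, against 3.05 in wild-type stem cells and 5.53 in non-stem cells. Of 12 macrophage genes, 3, 10, 2 and 6 were at or above the limit on the LncGata6 mutant, Ehf knockout, wild-type stem and non-stem arrays. Of 5 measured erythroid genes, 0, 3, 0 and 2 were, of 8 B and plasma cell genes 3, 7, 4 and 5, and of 7 platelet genes 0, 1, 0 and 0. Of 12 T cell and intraepithelial lymphocyte genes, 12, 8, 4 and 7 were at or above the limit in the same order of arrays. On the Ehf knockout array 0 of 34 hepatocyte enzymes and 0 of 13 hepatocyte surface genes reached the limit, and Alb was at 1.83. The part of neutrophils, other blood cells or hepatocytes in the signals of Hp, Trf and Orm1 was not tested.

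**Figure D3:**
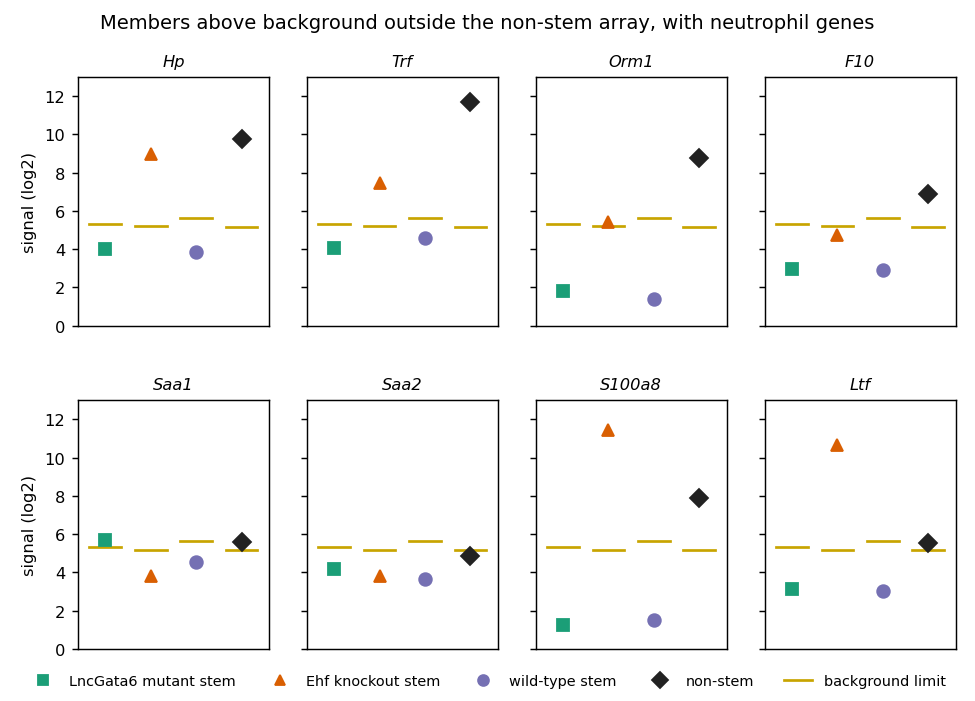
Log2 signal of 6 members and of the neutrophil genes S100a8 and Ltf on the 4 arrays, 1 point per array, with each array's background limit as a horizontal bar. Hp, Trf and Orm1 pass the limit on the Ehf knockout array, as S100a8 and Ltf do, F10 stays under it, and Saa1 passes it on the LncGata6 mutant array.

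Other liver genes followed the members on the non-stem array. Of the 59 other plasma protein genes, 5, 4 and 4 were at or above the limit on the LncGata6 mutant, Ehf knockout and wild-type stem arrays and 54 on the non-stem array. Serpina1c, an alpha-1-antitrypsin, read 3.69, 1.61 and 3.29 on those arrays and 11.7 on the non-stem array. Pzp, a protease-trapping macroglobulin, read 2.23, 1.61 and 2.15, against 10.9 on the non-stem array. Mug1, a related murinoglobulin, read 1.78, 1.61 and 1.86, against 10.7 on the non-stem array. Serpina1c belongs to a family of near-identical copies, so its share of the signal is uncertain. On the wild-type stem array 54 of the 59 were called lower than on the non-stem array (91.5%, all genes 7.07%).

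The bright signal on the non-stem array was not limited to genes of secreted proteins. Of 34 hepatocyte enzymes, 6, 0 and 3 were at or above the limit on the LncGata6 mutant, Ehf knockout and wild-type stem arrays and 33 on the non-stem array. Cyp2e1, an ethanol-metabolising cytochrome P450, read 2.76, 1.94 and 2.93 on those arrays and 11.7 on the non-stem array. Hgd, an enzyme of tyrosine breakdown, read 2.09, 2.04 and 2.39, against 9.78 on the non-stem array. Of 13 hepatocyte surface genes, 2, 0 and 0 reached the limit on the LncGata6 mutant, Ehf knockout and wild-type stem arrays and 12 on the non-stem array. Slc10a1, the sodium-dependent bile acid carrier, read 1.57, 1.72 and 1.95, against 8.12 on the non-stem array.

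Transcription factors of liver, several of which the gut also uses, were spread differently over the arrays. Of 19 measured, 8, 1 and 5 were at or above the limit on the LncGata6 mutant, Ehf knockout and wild-type stem arrays and 13 on the non-stem array. Hnf4a, a nuclear receptor of liver and gut, read 7.75 on the LncGata6 mutant array and 4.57 on the Ehf knockout array, against 7.31 in wild-type stem cells and 8.16 in non-stem cells. Cebpa, the gene of a C/EBP factor, read 4.53, 3.97 and 4.56 on the LncGata6 mutant, Ehf knockout and wild-type stem arrays and 6.21 on the non-stem array. Cebpb, the gene of another C/EBP factor, read 5.73, 5.89 and 6.50, against 5.67 on the non-stem array, above the limit on all 4 arrays. Prox1, a homeobox factor, read 2.47, 2.29 and 2.99, against 5.63 on the non-stem array. Of the 19, 2 were called higher on the wild-type stem than on the non-stem array, Gata6 and Nr5a2 (all genes 3.82%). In the same comparison 7 were called lower (all genes 7.07%). Hnf4a was thus above background on arrays where 43 or 44 of the 44 members were not.

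Lists for other cells of liver and for kidney differed in how far they followed the members. Of 13 Kupffer cell genes, 0, 6 and 1 reached the limit on the LncGata6 mutant, Ehf knockout and wild-type stem arrays and 9 on the non-stem array. Vsig4, a complement receptor of tissue macrophages, read 1.45, 2.23 and 1.43, against 5.41 on the non-stem array. Of 14 genes of liver endothelium, 0, 2, 0 and 5 reached the limit, among them Stab2, a scavenger receptor, at 5.40 on the non-stem array, where 26.5% of all genes did. Of 11 stellate cell genes, 0, 0, 1 and 4 reached it on the LncGata6 mutant, Ehf knockout, wild-type stem and non-stem arrays, and of 9 bile duct genes, 4, 1, 6 and 7 did. Of 19 kidney tubule genes, 2, 1 and 0 did so on the LncGata6 mutant, Ehf knockout and wild-type stem arrays and 17 on the non-stem array. Kap, an androgen-regulated kidney gene, read 1.48, 1.41 and 1.58 on those arrays and 12.3 on the non-stem array. Umod, the urinary protein uromodulin, read 1.61, 2.04 and 1.85, against 10.1 on the non-stem array. The non-stem array thus held signal of the liver and kidney lists side by side with that of the enterocyte list. The part of liver and kidney transcripts in the difference between labelled stem and non-stem cells was not tested.

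**Figure D4:**
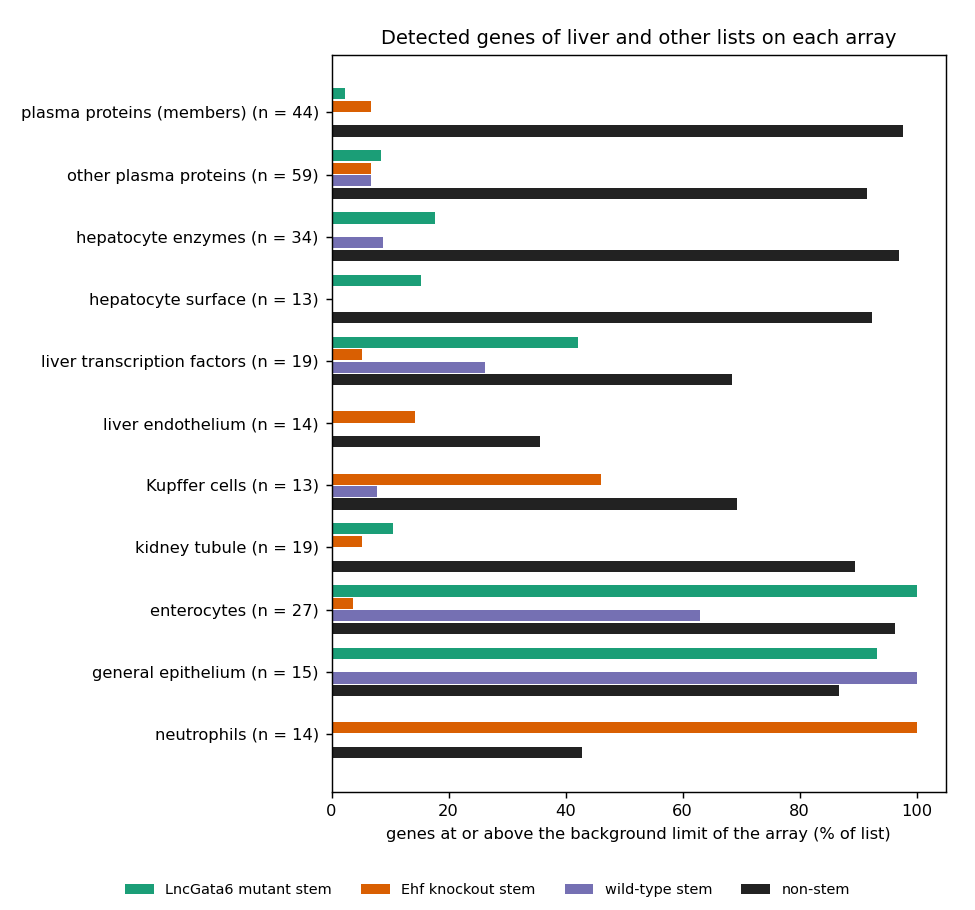
Percent of each gene list at or above the background limit of each array, 1 bar per array, with the number of measured genes beside the list name. Members, other plasma proteins, hepatocyte enzymes, hepatocyte surface genes and kidney tubule genes have their longest bar on the non-stem array. So do liver transcription factors, liver endothelium and Kupffer cell genes. Neutrophil genes have it on the Ehf knockout array, enterocyte genes on the LncGata6 mutant array and general epithelium on the wild-type stem array.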

How the data were processed

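Total RNA was read on Clariom D arrays, 1 per group. The deposited values are the authors', in log2, for 72688 features; their range (-0.18 to 13.1) set the scale. Per the submitters' processing notes, RMA and Affymetrix Power Tools were used; their versions are not given in the sources used here. Such processing subtracts background, normalizes between arrays and summarises probes, which compresses differences of dim features; the arrays' medians over genes still differed (3.24 to 3.55).

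Features were named from the platform annotation, updated through RefSeq (GRCm38.p6, 1775 symbols): 31258 had 1 symbol, 1492 several (left out) and the rest none listed. Of the 30701 genes, 442 had several features, and the one with the highest mean was used. No build is named for the features, so they have no coordinates.

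The members and the 24 other gene lists, some of which share genes, were chosen with earlier results of these data known. Named genes were all members, Ehf, Gata6os, Lgr5 and up to 4 called members of a list with the largest differences in the direction of the larger count. Apoa4, Hnf4a, Cebpa, Cebpb, Afp, Xist, Uty, F5, Lrg1, Lbp, Hgfac, Il6, Stat3 and Socs3 were chosen after their values were seen. Calls and folds are differences of single arrays. The number of arrays limits precision. Counting was tested on simulated data. Alternatives covered scaling, both call limits, the background limit, the feature per gene and symbols. Python 3.11.15, pandas 2.3.3, Biopython 1.88 and, for cyclic loess, R 4.3.3 with limma 3.58.1 were used. Promoters, chromosomes and gene neighbours came from RefSeq tables of that assembly.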

Additional observations from a re-analysis of the deposited data

How the results depend on the processing

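Among counts and medians under the alternative settings, 195 stayed close to the reported value and 15 moved by more than 1.5 times. Of the medians, 0 turned their direction, which was looked for only where a median had moved. Counts were not checked for a turn. The larger of the higher and lower counts of all genes did change sides in places. One case was the Ehf knockout against the wild-type stem array after quantile normalization. With a fold limit of 4, 0 members were higher on the LncGata6 mutant array than on the wild-type stem array, in place of 1 (Saa1), because its difference is below that limit. F10 was lost on the Ehf knockout array under that limit and when the brighter value had to reach the background limit, while Hp, Trf and Orm1 were called under each setting. Saa1 was not called lower on the wild-type stem array than on the non-stem array after median centring, quantile normalization or cyclic loess, or with a fold limit of 4, leaving 42 members in place of 43. The median of all genes differed by -0.20 between the Ehf knockout and wild-type stem arrays and by -0.29 between the Ehf knockout and non-stem arrays.

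With a fold limit of 4, the counts of all genes higher and lower were 280 and 150 for the LncGata6 mutant and 313 and 543 for the Ehf knockout against the wild-type stem array. Against the non-stem array they were 432 and 966 for the LncGata6 mutant, 437 and 1401 for the Ehf knockout and 469 and 961 for the wild-type stem array. As deposited, with a fold limit of 2, these counts were 861 and 923, 796 and 1620, 1124 and 2108, 923 and 3018, and 1173 and 2171 in the same order. Quantile normalization gave 1032 lower genes and cyclic loess 1038 for the Ehf knockout against the wild-type stem array, beside 1130 and 1101 higher. Quantile normalization gave 1755 higher and 1856 lower genes for the Ehf knockout against the non-stem array. The cause was not tested. With the 99th percentile of the controls as background limit, 83 of the members' remaining folds moved by over 1.5 times and 1 did not.

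No paired analysis was possible because each group has 1 array. Below the background limit neither a level nor a fall can be read.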

Other observations

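On the non-stem array a larger share of male-biased than of female-biased liver genes reached the background limit. Of 16 genes with higher expression in male mouse liver, 0 reached the background limit on the LncGata6 mutant, Ehf knockout and wild-type stem arrays and 13 did on the non-stem array. Keg1 read 1.41, 1.09 and 1.43 on those arrays and 9.75 on the non-stem array, and Cyp4a12a, a fatty acid hydroxylase, read 1.47, 1.61 and 1.52, against 8.75 on the non-stem array. The non-stem array also had 17 of 19 kidney tubule genes at or above the limit. The tissue behind these signals is therefore uncertain and was not tested. Of 18 genes higher in female liver, 3, 1 and 3 reached the limit on the LncGata6 mutant, Ehf knockout and wild-type stem arrays and 8 on the non-stem array. Some of these were also bright on the non-stem array, among them Cyp2c40 at 8.24, Cyp2a4 at 8.22, Cyp2c69 at 7.66 and Hao2 at 7.21. Of all genes, 20.1%, 17.5% and 16.5% reached the limit on the LncGata6 mutant, Ehf knockout and wild-type stem arrays and 26.5% on the non-stem array. Xist, transcribed from the inactive X chromosome, read 2.44, 8.79 and 8.46 on those arrays in the same order and 1.93 on the non-stem array. The Y-linked gene Uty read 4.50, 1.92 and 3.39, against 5.28 on the non-stem array, and the non-stem value alone was above its limit.

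Fetal liver and yolk sac genes were at background on all 4 arrays in 8 of 8 cases, with Afp, the fetal albumin relative, at 3.46, 2.42 and 2.50 on the LncGata6 mutant, Ehf knockout and wild-type stem arrays and 2.25 on the non-stem array. Of 15 pancreatic acinar genes, 2, 0 and 3 reached the limit on those arrays and 2 on the non-stem array. Of 13 genes of the signalling that governs acute-phase proteins (cytokines, their receptors, Stat3 and Socs3, a feedback inhibitor), 5, 5 and 5 reached the limit on the LncGata6 mutant, Ehf knockout and wild-type stem arrays and 3 on the non-stem array. Tnf read 4.99, 5.50 and 5.60, against 3.35 on the non-stem array, and Il1b read 6.10, 6.79 and 6.51, against 4.33. Tnf was above the limit on the Ehf knockout array alone, and Il1b on every array but the non-stem one. The receptor gene Il6st went the other way, at 5.49, 5.88 and 5.86, against 7.84 on the non-stem array. Of the 13, 2 (Tnf and Il1b) were called higher on the wild-type stem than on the non-stem array (all genes 3.82%). Il6st was the 1 called lower (all genes 7.07%). Il6, the interleukin-6 gene, read 1.37, 2.19, 4.86 and 1.38 in the same order of arrays, under every limit.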
